A study of Homo sapiens with 9 samples.

Results

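The genes described here are 34 nuclear genes whose products copy, transcribe, process or degrade the nucleic acids of mitochondria, taken from a list of symbols and matched to the numeric NCBI Gene IDs of the deposited count tables. All 34 were found among the 28395 genes of the tables, and all 34 were among the 16017 genes with enough counts to be tested, so no member was lost to the filter on low counts. Wild-type Caco-2 cells, an established line from a human colon carcinoma whose layers come to resemble enterocytes, had been differentiated in 6-well plates. For 24 h they then received carmine at 10 µM, carminic acid at 20 µM, or plain culture medium as control. Total RNA was sequenced from 3 samples per group, called libraries A, B and C. Carminic acid is a red anthraquinone from cochineal insects, and carmine is the food colour made by complexing it with aluminium. Nothing in the labels says that a group's samples were cultured separately, so the p-values reflect the spread between these samples alone, and that spread may be technical.

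Mitochondria keep a small circular genome that encodes respiratory chain subunits, rRNAs and tRNAs, while every protein that copies or reads it is made from nuclear genes. In human cells the polymerase POLRMT, with TFAM and TFB2M, transcribes both strands into long precursors. The tRNAs are then cut out of these precursors, which also releases most of the mRNAs and rRNAs between them, and LRPPRC with SLIRP keeps the mRNAs from decay. NRF1 and GABPA are nuclear transcription factors known to bind the promoters of many genes of this machinery.

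Because NRF1 and GABPA are themselves on the list, the promoter windows of the genes were searched for their core motifs. RefSeq windows of GRCh38.p14, from 250 bases before to 50 bases after a gene's start, were at hand for 29 of the 34 genes, in 35 windows. The windows of TFAM, POLRMT and TFB1M are shown since these are the genes of the transcription group whose windows hold the NRF1 motif. Capitals mark matches on either strand to the NRF1 motif GCGCANGCGC or the GABPA core CCGGAAG.
TFAM, chr10:58385160-58385459, plus strand: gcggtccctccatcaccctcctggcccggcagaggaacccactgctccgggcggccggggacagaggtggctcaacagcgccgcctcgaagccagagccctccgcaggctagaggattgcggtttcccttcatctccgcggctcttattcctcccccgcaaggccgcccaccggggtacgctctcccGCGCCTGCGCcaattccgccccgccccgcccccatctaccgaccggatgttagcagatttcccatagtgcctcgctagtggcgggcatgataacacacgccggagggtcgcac
POLRMT, chr19:633488-633787, minus strand: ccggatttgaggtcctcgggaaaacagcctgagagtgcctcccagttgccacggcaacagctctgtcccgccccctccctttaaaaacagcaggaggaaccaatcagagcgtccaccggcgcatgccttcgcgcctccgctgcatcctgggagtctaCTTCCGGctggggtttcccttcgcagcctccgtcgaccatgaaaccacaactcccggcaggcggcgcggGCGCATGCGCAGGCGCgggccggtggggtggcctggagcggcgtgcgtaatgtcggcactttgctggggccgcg
TFB1M, chr6:155314435-155314734, minus strand: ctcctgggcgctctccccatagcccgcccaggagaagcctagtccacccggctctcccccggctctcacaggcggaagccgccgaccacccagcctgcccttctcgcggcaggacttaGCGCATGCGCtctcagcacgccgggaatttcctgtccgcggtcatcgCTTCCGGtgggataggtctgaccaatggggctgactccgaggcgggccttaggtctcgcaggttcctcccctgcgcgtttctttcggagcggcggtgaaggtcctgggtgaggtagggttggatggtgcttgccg
The POLRMT window held 2 NRF1 matches that overlap each other, whereas the TFAM and TFB1M windows held 1 each. A GABPA core stood in the windows of POLRMT and TFB1M and none was found in that of TFAM. Over the 29 genes, 5 of 35 windows held the NRF1 motif (TFAM, POLRMT, TFB1M, POLG2 and REXO2), and 5.78% of all 35116 windows in the table did. The GABPA core was found in 14 of 35 windows, belonging to 11 genes, and in 10.3% of all windows. These matches are letters in a window and were not tested as binding sites.

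Library totals lay between 54871018 and 57581301 counts, and the biological coefficient of variation was 10.9%. On the first principal component (20.9% of variance) carmine library C lay at 34.5, and the other 8 libraries lay between -19.4 and 14.5. Enterocyte markers were abundant as a sum of CPM (counts scaled by library size and TMM factors). The sums were 7189 to 8213 CPM in carmine, 7213 to 7985 CPM in carminic acid and 7130 to 7589 CPM in control libraries. Not all of these markers were high: KRT20 had 0 counts, and CDX1 averaged 0.0161, LGALS4 1.33 and FABP2 8.73 CPM. Markers of stromal, endothelial and immune cells summed to 136 to 161, 142 to 174 and 148 to 185 CPM in carmine, carminic acid and control libraries. Most of that was COL1A1 (117 CPM), followed by LYZ (11.6 CPM), PECAM1 (11 CPM) and CD14 (6.68 CPM), while the pan-leukocyte gene PTPRC averaged 0.0158 CPM.

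Transcripts of the mitochondrial genome itself took 1.19% ± 0.185 of counts with carmine, 1.60% ± 0.433 with carminic acid and 2.30% ± 0.308 in control (SD, n = 3 each). The nuclear genes that make and process those transcripts together took 0.175% ± 0.00810 of counts with carmine, 0.171% ± 0.00455 with carminic acid and 0.178% ± 0.00638 in control. This sum leans on the most abundant members: LRPPRC averaged 521 CPM and TFAM 191 CPM in control, followed by GRSF1 at 87.2 CPM. The 34 genes' share differed from control by -0.00323 percentage points with carmine and -0.00714 with carminic acid, which is of the size of the SDs; no test was made on the shares. Over nuclear counts alone the differences were -0.00531 and -0.00856, and over all counts the carmine difference was 0.00145 without carmine library C and -1.5e-06 without control library C. In these bulk samples, fewer cells of a kind and less RNA per cell cannot be told apart.

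Levels of the 34 genes were compared per kilobase of exon in control. LRPPRC, which binds and stabilises mitochondrial mRNAs, was the most abundant at 78.4 CPM per kilobase. HSD17B10, a subunit of the enzyme that cuts tRNA 5′ ends, followed at 40.3 CPM per kilobase, then FASTK, which acts in the stability of ND6 mRNA, at 38.0, the oligonucleotide-degrading REXO2 at 36.1, and TFAM, the packaging and transcription factor of mitochondrial DNA, at 35.3 CPM per kilobase. The lowest levels per kilobase belonged to PRORP at 3.10, the nuclease subunit of the same tRNA-cutting enzyme, to MTERF1 at 3.53, and to the elongation factor TEFM at 3.76. Per kilobase, the enzyme's subunits HSD17B10 and PRORP thus stood near opposite ends of the list. The length used was that of all annotated exons merged, 960 bases for HSD17B10 and 6458 for PRORP. Before division by length their control means were closer, at 38.7 and 20.0 CPM. Counts per library behind these levels ran from at least 308 for MTERF3 to 31354 at most for LRPPRC.

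**Figure D1:**
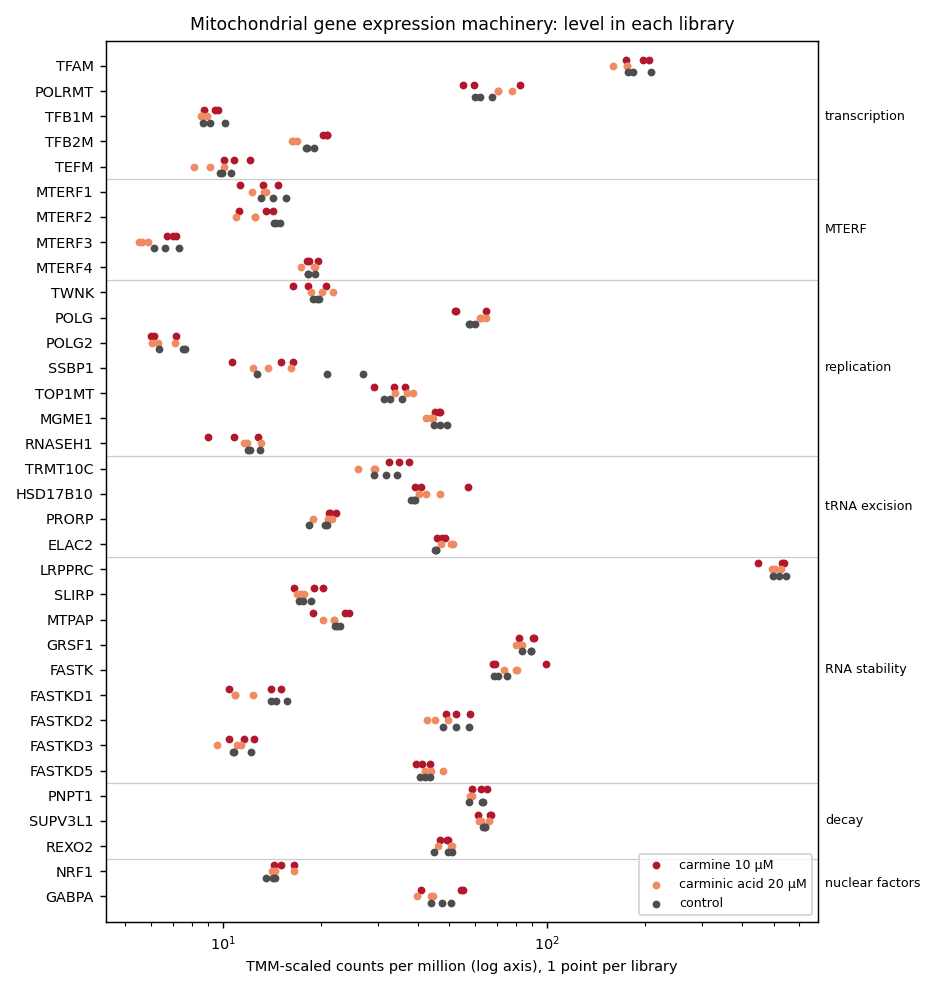
Level of each of the 34 genes in each library, as TMM-scaled CPM on a log axis, with 1 point per library, carmine in red, carminic acid in orange and control in grey; genes run down the page by role. The spread between genes is far wider than that between groups, and levels are not corrected for gene length here.

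With 10 µM carmine, no member passed an adjusted p of 0.05 in edgeR's quasi-likelihood test, nor in DESeq2 or limma-voom. Over all 16017 genes edgeR called 0% as well, DESeq2 called 81 genes and limma-voom 43. At an unadjusted p under 0.05 the count was 0 of 34 members, where the share over all genes was 11%. Positive log2 fold changes were found for 19 of 34 members, with a median of 0.013, and for 8276 of 16017 genes, with a median of 0.0066. The median size of a member's log2 fold change, regardless of sign, was 0.058, less than the median standard error of 0.095.

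With 20 µM carminic acid, no member passed an adjusted p of 0.05 either, in edgeR, DESeq2 or limma-voom, and edgeR called 0% of all genes (DESeq2 called 6 and limma-voom 34). At an unadjusted p under 0.05 stood 2 members, FASTKD1 and MTERF2, against a share of 6.43% over all genes. Positive values were seen for 11 of 34 members, with a median log2 fold change of -0.070, and for 7706 of all tested genes, with a median of -0.0078. The median size regardless of sign was 0.12, above the median standard error of 0.095. The members' median changed sign once trends with transcript length and GC content were removed (0.016, with 20 of 34 positive). Both comparisons use the same 3 control libraries, and the stated concentrations differ, so the colorants were not tested against each other.

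For most members the fit gave narrow intervals. For carmine, the 95% interval of the log2 fold change lay within 0.5 of zero for 33 of 34 members, all but SSBP1. For carminic acid this held for 31 of 34, the others being MTERF2, FASTKD1 and SSBP1. The 15 tested transcripts of the mitochondrial genome had a median log2 fold change of -0.92 with carmine, and the intervals of 33 of 34 members lay wholly above that value. With carminic acid the mitochondrial median was -0.48, and 31 of 34 intervals lay wholly above it. None of the mitochondrial transcripts passed the adjusted p in either comparison, and the difference between the lists was not tested. Over all genes tested the median log2 fold change was 0.0066 with carmine and -0.0078 with carminic acid. Intervals were not counted over all genes, so the counts given here are not read as a trait of the members.

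**Figure D2:**
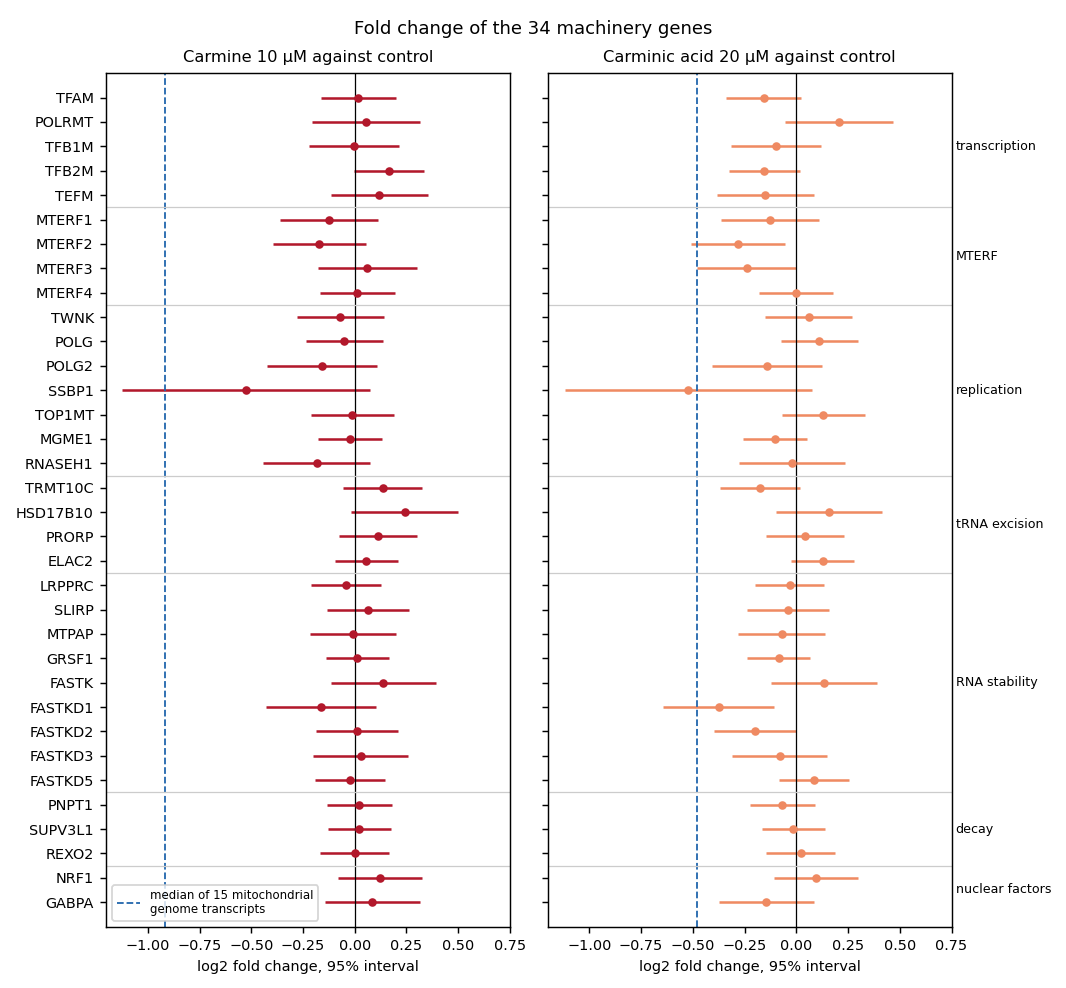
Log2 fold change of each gene with its 95% interval from edgeR, for carmine (left) and carminic acid (right) against control; the dashed line is the median of the 15 mitochondrial genome transcripts. All intervals for carmine, and all but those of MTERF2 and FASTKD1 for carminic acid, cross 0. Those of SSBP1 are the widest and reach the dashed line in both panels. For carminic acid those of MTERF2 and FASTKD1 reach it too.

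Library by library, the median deviation of the 34 genes from their control mean was 0.031, 0.043 and -0.057 log2 units in carmine libraries A, B and C. It was -0.034, -0.057 and -0.071 in carminic acid libraries A, B and C, against -0.052, 0.0042 and 0.030 in control libraries A, B and C. The carmine values thus fell on both sides of zero, and the control library A was as low as the carminic acid libraries. Over all genes tested the median deviation lay between -0.0067 (carminic acid library C) and 0.0026 (control library A). Deviations are taken from the control mean after TMM scaling, so a list of many nuclear genes is placed near 0 by the method. The medians over the mitochondrial transcripts were -0.82, -0.83 and -1.19 in carmine libraries and -0.62, -0.87 and -0.072 in carminic acid libraries, against -0.27, 0.15 and 0.091 in control libraries. Carminic acid library C, at the control level for mitochondrial transcripts, had the lowest median of all 9 libraries for the machinery.

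**Figure D3:**
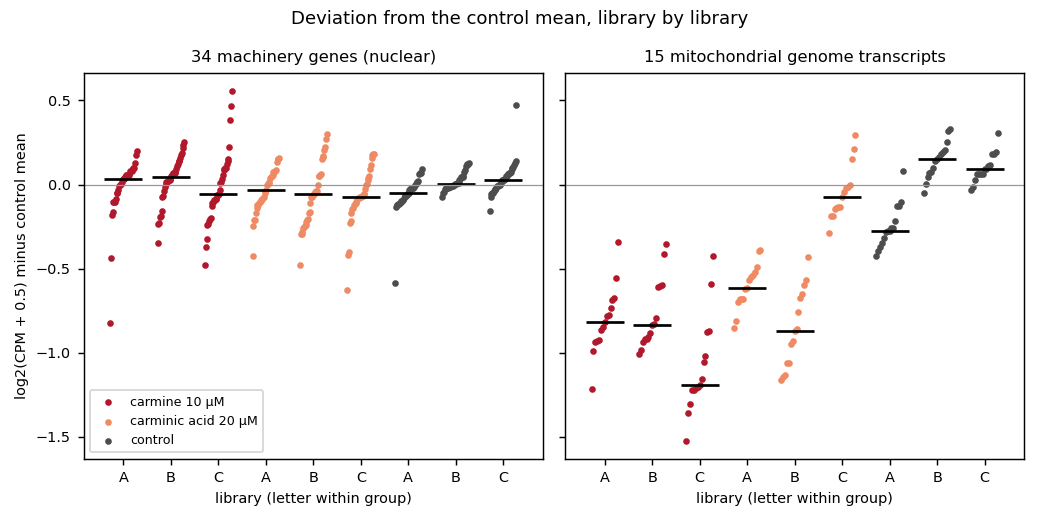
Deviation of each gene from its control mean, as log2(CPM + 0.5), in every library, for the 34 machinery genes (left) and the 15 mitochondrial genome transcripts (right); black bars are medians. The machinery medians lie between -0.071 and 0.043, and those over all genes tested, not drawn, between -0.0067 and 0.0026. The mitochondrial transcripts sit below 0 in all carmine libraries.

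Among the 5 transcription genes, TFB2M was the one whose 3 groups were fully separate. TFB2M (chromosome 1, 246540561 to 246566261 on hg38) encodes the factor that opens the mitochondrial promoter for POLRMT. It stood at 20.9, 20.9 and 20.4 CPM in carmine libraries A, B and C, at 16.9, 16.5 and 16.4 CPM in carminic acid libraries, and at 18.02, 18.2 and 19.1 CPM in control libraries. Every carmine library lay above, and every carminic acid library below, all 3 control libraries. The log2 fold change was 0.17 (SE 0.079; edgeR adjusted p = 0.454) for carmine and -0.15 (SE 0.079; edgeR adjusted p = 0.717) for carminic acid, so neither passed. With the length and GC trends removed the value for carminic acid was -0.072. In carmine it was one of 4 members whose libraries all lay above control, with HSD17B10, PRORP and ELAC2, where 7.32% of all genes did so. With carminic acid the libraries of 8.82% of all genes lay below control. Genes with 3 separate groups were not counted over all genes.

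TFAM (chromosome 10, 58385410 to 58399220), which coats mitochondrial DNA and bends its promoters, showed overlapping groups with carmine. It had 198, 207 and 175 CPM in carmine libraries A, B and C and 177, 160 and 176 CPM in carminic acid libraries, against 178, 184 and 210 CPM in control libraries. All carminic acid libraries lay below the lowest control library, A and C only just, while the carmine libraries spread over the control range. The log2 fold changes were 0.018 (SE 0.084; edgeR adjusted p = 0.953) for carmine and -0.16 (SE 0.084; edgeR adjusted p = 0.717) for carminic acid. The carmine value turned negative, to -0.011, with library size alone in place of TMM, and the carminic acid value was -0.032 with the length and GC trends removed. Its 1 named pseudogene, TFAMP1, held 5 counts in all libraries together, against 93941 for TFAM.

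POLRMT, the mitochondrial RNA polymerase itself, averaged 65.7 ± 14.7 CPM with carmine and 72.9 ± 4.20 CPM with carminic acid, against 63.2 ± 3.82 CPM in control (SD, n = 3 each). Its carmine spread came from library C, at 82.5 CPM, with libraries A and B at 59.5 and 55.1 CPM. Without that library the log2 fold change for carmine was -0.14 in place of 0.055. For carminic acid it was 0.21, or 0.092 with the length and GC trends removed. The elongation factor TEFM had log2 fold changes of 0.12 and -0.15, and the rRNA methyltransferase TFB1M, a paralog of TFB2M, -0.0035 and -0.096, for carmine and carminic acid. Part of the TFB1M exons, 15.1%, overlaps TIAM2 on the opposite strand, and the strand setting of the counting is not given in the sources used here. Per kilobase of exon the control levels of the paralogs were 6.54 CPM for TFB1M and 9.99 CPM for TFB2M.

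The 4 MTERF genes encode relatives of the termination factor MTERF1, which binds mitochondrial DNA downstream of the rRNA genes. MTERF2 (chromosome 12, 106977277 to 106987146) had 13.6, 14.2 and 11.2 CPM in carmine libraries A, B and C and 12.6, 12.6 and 10.98 CPM in carminic acid libraries, against 14.4, 14.6 and 14.96 CPM in control libraries. All 6 colorant libraries lay below all control libraries. Its log2 fold change was -0.17 (SE 0.105; edgeR adjusted p = 0.54) for carmine and -0.28 (SE 0.105; edgeR adjusted p = 0.717, unadjusted 0.0176) for carminic acid. With carmine MTERF2 was the only member whose libraries all lay below control, where 7.67% of all genes did so. MTERF2 lay below control with both colorants, which was not counted over all genes. Without carmine library C, the lowest, its value for carmine was -0.069. MTERF1, MTERF3 and MTERF4 had values between -0.13 and 0.060 with carmine, and between -0.24 (MTERF3) and -0.0013 (MTERF4) with carminic acid, for which all 4 values were negative. With the length and GC trends removed 2 of the 4 were negative with carminic acid, and the median of the 4 was -0.071 in place of -0.18. Exons of MTERF4 overlap SNED1 on the opposite strand over 15.1% of their length.

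All 7 replication and nucleoid genes had negative values with carmine, from -0.52 to -0.011, and none passed. Without carmine library C this was still so for 7 of 7, for 6 of 7 without carmine library B, and for 5 of 7 without carmine library A or without control library C. With carminic acid 4 of 7 were negative. SSBP1 (chromosome 7, 141738321 to 141750488), which coats single-stranded mitochondrial DNA during copying, had the largest fold change of all members and the largest spread. It stood at 10.7, 15.1 and 16.4 CPM in carmine libraries A, B and C and at 16.2, 13.7 and 12.3 CPM in carminic acid libraries, against 12.7, 20.9 and 27.1 CPM in control libraries. Control library A lay among the colorant libraries, and control libraries B and C lay above all of them. The log2 fold change was -0.52 for each colorant (SE 0.26; edgeR adjusted p = 0.482 for carmine and 0.717 for carminic acid). It was -0.77 and -0.78 without control library A and -0.26 and -0.26 without control library C, for carmine and carminic acid. Its coefficient of variation within control was 35.5%, against 0.527% to 9.91% for the other members.

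The other replication genes had smaller values. POLG, the catalytic subunit of the mitochondrial DNA polymerase, had 56.4 ± 7.32 CPM with carmine and 63.1 ± 1.60 CPM with carminic acid, against 58.4 ± 1.24 CPM in control (SD, n = 3 each). All carminic acid libraries of POLG lay above all control libraries, with a log2 fold change of 0.11 (edgeR adjusted p = 0.74), or 0.027 with the length and GC trends removed. The accessory subunit POLG2 had -0.16 and -0.14, the helicase TWNK -0.070 and 0.061, the topoisomerase TOP1MT -0.011 and 0.13, the exonuclease MGME1 -0.022 and -0.10, and the RNA primer-removing RNASEH1 -0.18 and -0.020, as log2 fold changes for carmine and carminic acid. The 2 polymerase subunits thus had values of one sign with carmine and of opposite sign with carminic acid. Exons of POLG overlap FANCI on the opposite strand over 9.55% of their length.

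The 4 genes of tRNA excision were all positive with carmine, with a median log2 fold change of 0.12, and were so under each alternative run, also without carmine library C. With carminic acid 3 of 4 were positive. HSD17B10 (chromosome X, 53431258 to 53434376), TRMT10C and PRORP form the complex that cuts the 5′ end of mitochondrial tRNAs, and ELAC2 cuts the 3′ end. HSD17B10 had 39.2, 40.8 and 57.2 CPM in carmine libraries A, B and C and 42.5, 46.9 and 40.1 CPM in carminic acid libraries, against 39.1, 38.1 and 38.9 CPM in control libraries. All colorant libraries lay above all control libraries, but carmine library A hardly so, and carmine library C stood far above the rest. The log2 fold change was 0.24 (SE 0.12; edgeR adjusted p = 0.462) for carmine, 0.052 without carmine library C, and 0.16 (SE 0.12; edgeR adjusted p = 0.74) for carminic acid. With the length and GC trends removed these were 0.14 for carmine and 0.096 for carminic acid. How many of all genes lay above control with both colorants was not counted.

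TRMT10C, the methyltransferase subunit of that complex, had 34.9, 37.5 and 32.6 CPM in carmine libraries A, B and C and 29.2, 26.1 and 29.4 CPM in carminic acid libraries, against 29.2, 31.9 and 34.5 CPM in control libraries. Both colorant groups overlapped with control, the carmine values towards its upper end and the carminic acid values at its lower end. The log2 fold changes were 0.14 (SE 0.090; edgeR adjusted p = 0.567) for carmine and -0.18 (SE 0.090; edgeR adjusted p = 0.717) for carminic acid, or -0.053 with the length and GC trends removed. ELAC2 averaged 47.1 ± 1.31 CPM with carmine and 49.6 ± 2.27 CPM with carminic acid, against 45.4 ± 0.239 CPM in control (SD, n = 3 each), and its 3 control libraries were the closest to each other of any member. PRORP averaged 21.6 ± 0.642 and 20.6 ± 1.43 CPM with carmine and carminic acid, against 20.0 ± 1.38 CPM in control. Libraries of HSD17B10, ELAC2, POLRMT and POLG all lay above control with carminic acid, 4 of 34 members where the share over all genes was 12%.

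Of the 9 genes for stability, polyadenylation and granules of mitochondrial RNA, 5 had positive values with carmine and 2 with carminic acid. The carmine count was 1 of 9 without carmine library B and 7 of 9 without carmine library C. With the length and GC trends removed 6 of 9 were positive with carminic acid, and the median of the 9 was 0.034 in place of -0.071. FASTKD1 (chromosome 2, 169528508 to 169573865), a member of the FASTK family of mitochondrial RNA-binding proteins, had the smallest unadjusted p of any member, 0.00935, for carminic acid. It stood at 15.1, 14.1 and 10.5 CPM in carmine libraries A, B and C and at 10.9, 12.4 and 10.9 CPM in carminic acid libraries, against 14.6, 14.02 and 15.8 CPM in control libraries. The carminic acid libraries all lay below the control libraries, and carmine library C was as low as they were. The log2 fold change was -0.38 (SE 0.13; edgeR adjusted p = 0.717) for carminic acid and -0.23 with the length and GC trends removed. For carmine it was -0.16 (SE 0.12; edgeR adjusted p = 0.624), and -0.016 without carmine library C. The lowest adjusted p of any member under any alternative was also that of FASTKD1 for carminic acid, 0.0616 with only the 6 libraries compared.

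LRPPRC (chromosome 2, 43886224 to 43996265), the most abundant member, had 538, 532 and 448 CPM in carmine libraries A, B and C and 527, 505 and 496 CPM in carminic acid libraries, against 498, 521 and 545 CPM in control libraries. The groups overlapped throughout, and carmine library C was the lowest of all. Its log2 fold changes of -0.043 (SE 0.078; edgeR adjusted p = 0.852) for carmine and -0.033 (SE 0.078; edgeR adjusted p = 0.911) for carminic acid both turned positive with the length and GC trends removed. Its partner SLIRP, part of whose exons overlaps SLIRP-OT1 and SNW1, had 18.7 ± 1.95 and 17.3 ± 0.440 CPM with carmine and carminic acid, against 17.8 ± 0.745 CPM in control (SD, n = 3 each).

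FASTK, the founding member of its family, had 69.0, 67.9 and 99.0 CPM in carmine libraries A, B and C, 73.6, 80.4 and 81.0 CPM in carminic acid libraries, and 75.0, 70.5 and 68.8 CPM in control libraries. Carmine library C alone lay above the control range in its group. Its carmine log2 fold change of 0.14 (SE 0.12; edgeR adjusted p = 0.662) was -0.056 without that library. With the length and GC trends removed it was 0.034 for each colorant. FASTKD2, FASTKD3 and FASTKD5 had values between -0.022 and 0.029 with carmine, and of -0.20, -0.081 and 0.085 with carminic acid. The poly(A) polymerase MTPAP had -0.0087 and -0.071, and GRSF1, an RNA-binding protein of the RNA granules, 0.013 and -0.086, for carmine and carminic acid. With carminic acid the libraries of 7 members all lay below control, namely TFAM, TFB2M, MTERF2, MTERF3, MGME1, MTPAP and FASTKD1, where 8.82% of all genes did so.

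The decay genes were the closest to control. PNPT1, the RNA-degrading polynucleotide phosphorylase, had 62.5, 65.2 and 58.6 CPM in carmine libraries A, B and C and 57.99, 58.8 and 58.2 CPM in carminic acid libraries, against 57.4, 63.0 and 63.2 CPM in control libraries. SUPV3L1, the helicase that works with PNPT1, had 66.7, 67.4 and 61.3 CPM in carmine libraries and 66.4, 62.4 and 61.6 CPM in carminic acid libraries, against 64.1, 63.6 and 64.5 CPM in control libraries. Both genes overlapped between groups, with log2 fold changes from -0.069 to 0.023 and no edgeR adjusted p under 0.794. REXO2 was at -0.00053 and 0.021 for carmine and carminic acid.

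Of the nuclear regulators, NRF1 had 15.1, 14.4 and 16.6 CPM in carmine libraries A, B and C and 14.5, 16.5 and 14.2 CPM in carminic acid libraries, against 14.3, 13.6 and 14.5 CPM in control libraries. GABPA, the DNA-binding subunit of its factor, had 54.2, 54.95 and 41.0 CPM in carmine libraries and 43.8, 39.6 and 44.6 CPM in carminic acid libraries, against 43.8, 47.3 and 50.4 CPM in control libraries. In both genes the colorant libraries overlapped with control, and carmine library C was the highest library for NRF1 and among the lowest for GABPA. The log2 fold changes were 0.12 and 0.094 for NRF1 and 0.085 and -0.14 for GABPA, for carmine and carminic acid (edgeR adjusted p between 0.625 and 0.786). The carminic acid value of GABPA was 0.010 with the length and GC trends removed. Exons of GABPA overlap ATP5PF on the opposite strand over 7.77% of their length, and the strand setting of the counting is not given. The 5 genes with an NRF1 motif in their window had log2 fold changes of 0.018 (TFAM), 0.055 (POLRMT), -0.0035 (TFB1M), -0.16 (POLG2) and -0.00053 (REXO2) with carmine. With carminic acid these were -0.16, 0.21, -0.096, -0.14 and 0.021 in the same order. Signs were mixed in both comparisons, some values were close to 0, and regulation through the motif was not tested.

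**Figure D4:**
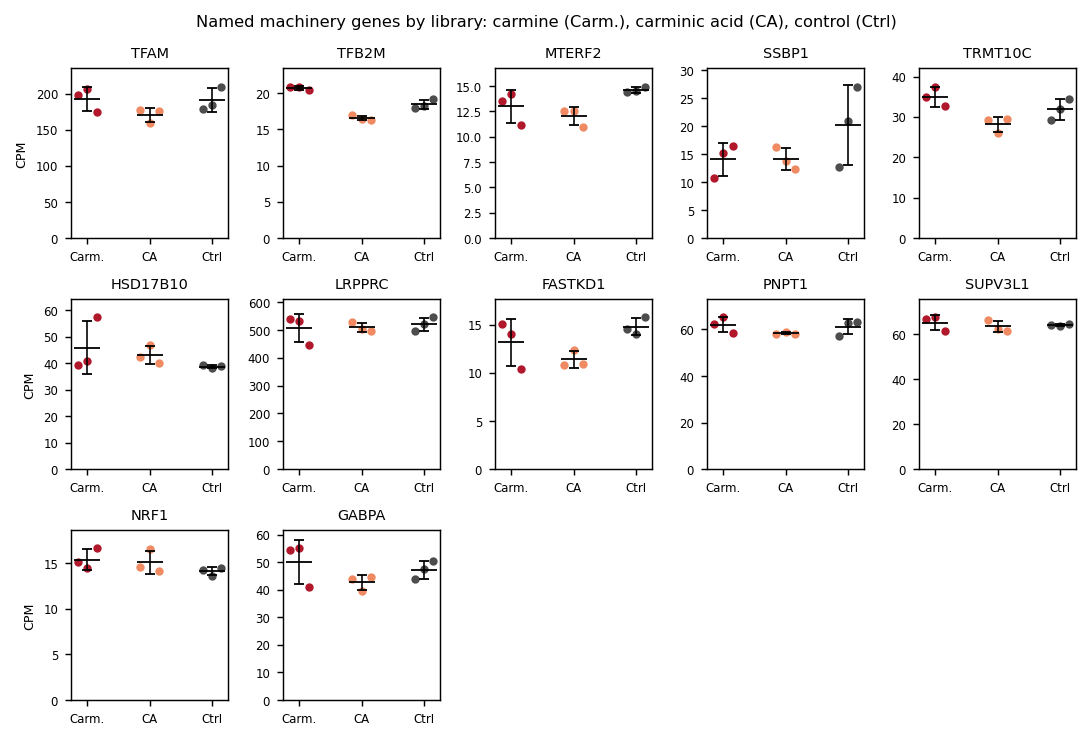
CPM in each library for the 12 genes given by library above under the rule for named genes, with carmine (Carm.), carminic acid (CA) and control (Ctrl) from left to right; bars are mean and SD of 3 libraries and the axes start at 0. TFB2M is the panel with 3 separate groups, and SSBP1 shows the widest control spread.

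The members differed in GC content, from 36.4% of the transcript in GABPA to 66.3% in POLRMT, and the carminic acid values followed it. Across the 34 genes the Spearman correlation of the log2 fold change with GC content was 0.78 for carminic acid and -0.036 for carmine, as a description, since genes of one library share its depth and base composition. Over the 15453 genes with an annotated length it was 0.48 for carminic acid and 0.14 for carmine. The correlation with exon length over these genes was -0.11 for carminic acid and -0.25 for carmine. Within carminic acid the members' correlation with GC content lay between 0.66 and 0.84 when each library was left out in turn. It was 0.36 with the length and GC trends removed. Within carmine it ran from -0.58 without carmine library C to 0.33 without carmine library B, so that the value near 0 rests on which libraries are kept.

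The relation was also visible library by library. The 8 members with at least 50% GC were POLRMT, TWNK, POLG, TOP1MT, RNASEH1, HSD17B10, ELAC2 and FASTK, a boundary chosen after the values were seen, in a gap of the GC values. Their median deviation from the control mean was 0.11, 0.17 and 0.074 in carminic acid libraries A, B and C, where the other 26 members had -0.084, -0.13 and -0.079. In carmine libraries A and B the order was turned round, with -0.067 and -0.12 for the 8 and 0.045 and 0.069 for the 26 members, and carmine library C had 0.14 and -0.088. In control libraries A, B and C the 8 members had 0.0075, -0.016 and -0.019 and the 26 members -0.066, 0.0066 and 0.042. Carmine library C thus had the order of the carminic acid libraries, and not that of the other carmine libraries. Control library A had it too: the members' Spearman correlation of deviation with GC content was 0.58 in carmine library C and between 0.51 and 0.83 in the carminic acid libraries, against 0.57 in control library A, -0.17 in B and -0.39 in C. Whether base composition plays a part in the members' values was not tested beyond the fit with the trends removed.

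**Figure D5:**
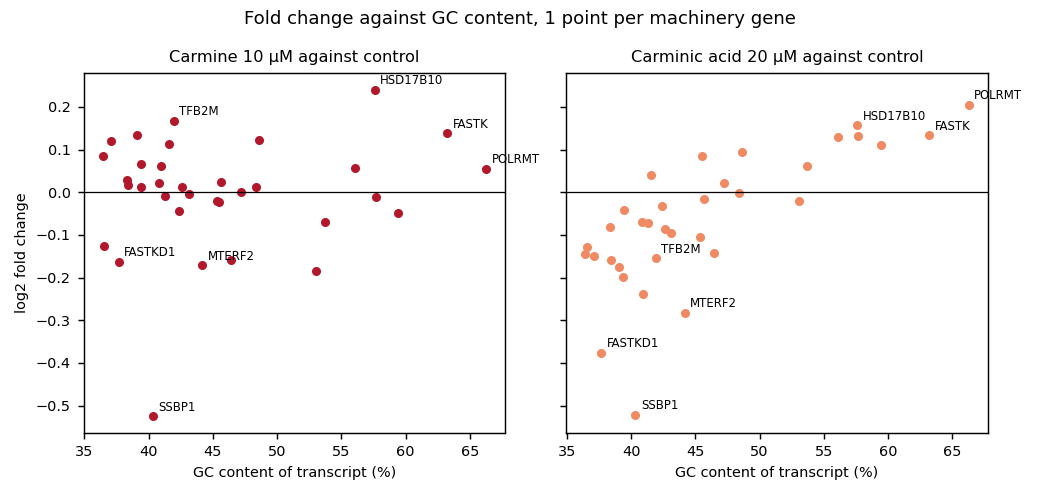
Log2 fold change against GC content of the transcript for the 34 genes, for carmine (left) and carminic acid (right) against control, 1 point per gene. With carminic acid the points climb with GC content (Spearman 0.78), and with carmine the value over all libraries is -0.036, but -0.58 without carmine library C.

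Genes of neighbouring steps were counted in 6 further lists, none of which had a called gene in either comparison. Other factors of RNA granules and decay had positive values for 19 of 20 genes with carmine, with a median log2 fold change of 0.095, and for 14 of 20 with carminic acid, with a median of 0.058. With the length and GC trends removed the medians of that list were 0.079 and 0.029. TACO1, a translational activator of COX1, had the smallest p of that list with carmine, at 30.0 ± 4.37 CPM against 24.9 ± 1.63 CPM in control (SD, n = 3 each; log2 fold change 0.27, edgeR adjusted p = 0.406). Aminoacyl-tRNA synthetases of mitochondria were positive for 16 of 22 and 13 of 22 genes, translation factors for 10 of 14 and 5 of 14, tRNA and rRNA modification enzymes for 13 of 24 and 16 of 24, and DNA maintenance and nucleotide supply for 13 of 20 and 12 of 20, with carmine and carminic acid. Their medians lay between -0.039 and 0.083, and between -0.038 and 0.065 with the length and GC trends removed. The sign changed for modification enzymes with carmine (0.015, then -0.038) and for translation factors with carminic acid (-0.039, then 0.048). TK2, the thymidine kinase of mitochondria, had 8.59 ± 0.631 CPM with carmine and 10.5 ± 0.554 CPM in control (log2 fold change -0.29, edgeR adjusted p = 0.386).

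Regulators of mitochondrial gene programs were positive for 2 of 11 genes with carmine (median -0.081) and 3 of 11 with carminic acid (median -0.050). With the length and GC trends removed these medians were -0.019 and -0.015. MYC, a transcription factor of growth genes, had 54.2 ± 3.01 CPM with carmine and 65.1 ± 2.32 CPM in control (SD, n = 3 each; log2 fold change -0.26, edgeR adjusted p = 0.371). GABPB1, the partner of GABPA, had 30.1 ± 1.80 CPM with carminic acid and 33.6 ± 2.23 CPM in control (log2 fold change -0.16, edgeR adjusted p = 0.717). With the smallest p of their lists, METTL17 had -0.19, TUFM 0.15 and GATC 0.11 with carmine, and METTL15 had -0.14, TRNT1 -0.30, MTRF1L -0.14 and SLC25A36 -0.19 with carminic acid (log2 fold changes, edgeR adjusted p of 0.453 or more).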

How the data were processed

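The authors deposited unnormalised read counts, in a table for each library that lists genes by NCBI Gene ID. The column headers name HISAT2, per the file headers, and the tools FastQC, HISAT and featureCounts and the build hg38 are listed, per the submitters' processing notes. The sources used here do not give the library kit, strand setting, annotation release or handling of multi-mapping reads. Symbols, lengths and GC content came from RefSeq names and GENCODE 29.

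The members, lists and rule for named genes were chosen with earlier results of these data known. Values per library are given for any called member, for each role's lowest-p gene in each comparison, and for NRF1, GABPA, TFAM and LRPPRC. POLRMT and FASTK were added after their values were seen. Of the neighbouring lists the lowest-p gene is given, and 1 such gene is not reported here.

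Counts were fitted in R 4.3.3 with edgeR 4.0.16 (filterByExpr, TMM, robust quasi-likelihood, all 9 libraries, no covariate). Tests are two-sided, with Benjamini-Hochberg adjustment over 16017 genes and a threshold of 0.05. Intervals are 95% intervals of that fit. Alternatives used RLE factors, library size alone, other filters, DESeq2 1.42.0, limma 3.58.1 voom with quality weights, smooth offsets for length and GC, only the 6 libraries compared, a replicate block, an adjusted p under 0.01, and leaving out each library. Library pairs within groups differed beyond counting noise (chi-square per degree of freedom of 9.51 or more), so none was treated as a copy. The fit was tested on simulated data with 200 changed genes.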

Additional observations from a re-analysis of the deposited data

How the results depend on the processing

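No member passed an adjusted p of 0.05 under any alternative, whether in edgeR, DESeq2 or limma-voom, in 544 values for each comparison, which limits what can be said to the intervals given. The sign of a member's value changed in 55 of these for carmine and 28 for carminic acid. The median of the members for carmine lay between -0.024 (without control library A) and 0.043 (without carmine library C). For carminic acid it was 0.016 with trends removed and 0.014 with the replicate block and trends removed, and between -0.10 (without control library A) and -0.045 with a library left out. Members with a positive value for carmine numbered from 12 of 34 (without control library A) to 23 of 34 (without control library C). For carminic acid they numbered from 9 of 34 (without control library A) to 20 of 34 (with trends removed).

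Genes called for carmine, 0 as reported, numbered 81 in DESeq2, 43 in limma-voom, 195 with trends removed, 7 with RLE factors, 7 with library size alone, 19 unfiltered and 12 when the fit held the 6 libraries compared. With a library left out they numbered 1 to 36: 11, 1 and 36 without carmine A, B and C, and 1, 1 and 5 without control A, B and C. For carminic acid they numbered 6 in DESeq2, 34 in limma-voom, 4 with trends removed, 2 unfiltered, 49 when the fit held the 6 libraries compared, and 0 to 1 with a library left out. The causes were not tested.

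Deviations of same-letter libraries had r of -0.149 to 0.0952, and those of different-letter libraries r of -0.162 to 0.156. These ranges overlap, so whether same-letter libraries shared a culture or a processing day cannot be told from them. The replicate block gave 0 called genes for carmine and 0 for carminic acid, and 378 and 2 with trends removed. The members' medians were 0.015 and -0.071 with the replicate block.

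Among the named members these signs changed. For carmine, LRPPRC was 0.025 with trends removed, 0.025 with the replicate block and trends removed, 0.0056 in limma-voom and -0.089 to 0.042 with a library left out. With library size alone TFAM was -0.011, PNPT1 -0.0089 and SUPV3L1 -0.0070. With a library left out TFAM ran from -0.037 to 0.096, PNPT1 from -0.026 to 0.065 and SUPV3L1 from -0.0048 to 0.070. For carminic acid with trends removed LRPPRC was 0.035, PNPT1 0.027, SUPV3L1 0.021 and GABPA, -0.14 as reported, 0.010, and with the replicate block as well these were 0.035, 0.027, 0.020 and 0.011.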
